A study of Neurospora crassa with 6 samples.

Results

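The vacuolar ATPase (V-ATPase) and autophagy genes of the filamentous fungus Neurospora crassa were examined as a set of 16 genes among the 9757 of the deposited count table. Members were all genes whose name begins with vma, vph, apg or atg followed by a number. The rule took 14 V-ATPase subunits, 8 of the V1 sector and 6 of the V0 sector, and 2 autophagy genes, atg-8 and apg-1. Autophagy genes that the table lists only by locus number were not reached by it, so the autophagy pathway is represented by 2 genes alone. Messenger RNA had been sequenced from mycelium, the branching vegetative cells, grown overnight in a sucrose-containing Vogel's medium. The groups were a cac-1, suz-12 double knockout and a cac-1 knockout, with 3 libraries each. Both lack cac-1, which encodes a subunit of the histone chaperone chromatin assembly factor 1, and the double knockout also lacks suz-12, a subunit of the Polycomb repressive complex. The comparison therefore asks what the loss of suz-12 adds in a strain without cac-1, and wild type was not analysed here.

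The V-ATPase is a rotary pump that spends ATP to move protons into vacuoles and other organelles. Its V1 sector lies in the cytoplasm and hydrolyses ATP, and its V0 sector lies in the membrane and carries the protons. The resulting gradient drives uptake of calcium, basic amino acids and other solutes into the fungal vacuole and keeps vacuolar proteases at acid pH. Autophagy delivers cytoplasm to that same compartment, in membrane vesicles whose growth needs the ubiquitin-like protein Atg8. In yeast the process is started by a complex around the protein kinase Atg1.

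Library totals ran from 18993719 to 28327383 counts in the double knockout and from 7989915 to 25315143 in the cac-1 knockout. No count fell on cac-1 in any library, and NCU05460, which the files do not name but which is known as suz-12, was lower in the double knockout, with a log2 fold change of -1.65 (standard error 0.246, adjusted p = 8.20e-05 by edgeR). Counts remained on it, 54 to 70 in the double knockout and 74 to 207 in the cac-1 knockout. The mating-type gene matA-1 had 1000 to 1387 counts in double-knockout libraries and 0 in cac-1 libraries, so the strains also differ at the mating-type locus. An effect of the loss of suz-12 cannot be told apart from one of this or another difference in background. Library names are consecutive within each strain, and an effect of strain cannot be told apart from one of library batch. Nothing in the labels says whether replicates came from separate cultures, so the spread between them may be technical. Levels are given in RPKM, counts divided by the counted exon length and by the library total, the total being scaled by its TMM factor. Among markers of other cells, the summed level of 5 conidial genes ran from 401 to 493 RPKM in the double knockout and from 436 to 806 RPKM in the cac-1 knockout. Of these, con-6 was called higher and con-8 lower, and none of the 5 was at 0. The 3 sexual-tissue genes summed to 612 to 1041 RPKM in the double knockout and to 916 to 1824 RPKM in the cac-1 knockout, with 1 of them, poi-2, called lower. Most of the sum was asd-1, at 586 to 1016 RPKM in the double knockout and 864 to 1776 RPKM in the cac-1 knockout. It was not called (adjusted p = 0.108 by edgeR), and neither was fmf-1, with a log2 fold change of 0.099. The part of such cells in the results below was not tested. In bulk RNA, fewer cells of a kind and less RNA in each cannot be told apart.

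None of the 14 V-ATPase subunits and neither autophagy gene differed between the strains at an edgeR adjusted p under 0.05, a threshold that 28.1% of the 9148 genes tested passed. All 16 members were well above the filter on low counts, with 303 to 26659 counts in a library, and all 16 were tested. At an unadjusted p under 0.05, 1 subunit, vma-5, and no autophagy gene passed, against 39.4% of all genes tested. DESeq2, which called 29.9% of genes, and limma-voom, which called 27.5%, also called 0 members. Genes at or above the level of the lowest subunit were called in 34.5% of cases, a class set after the values were seen. A missed threshold does not show that levels were equal. The 95% intervals of the 16 changes lay between 0.618-fold, the lower bound of vma-11, and 1.56-fold, the upper bound of vma-5. Each member's own interval was narrower than this range. The range joins 16 separate intervals and is not a 95% statement about all of them together.

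**Figure D1:**
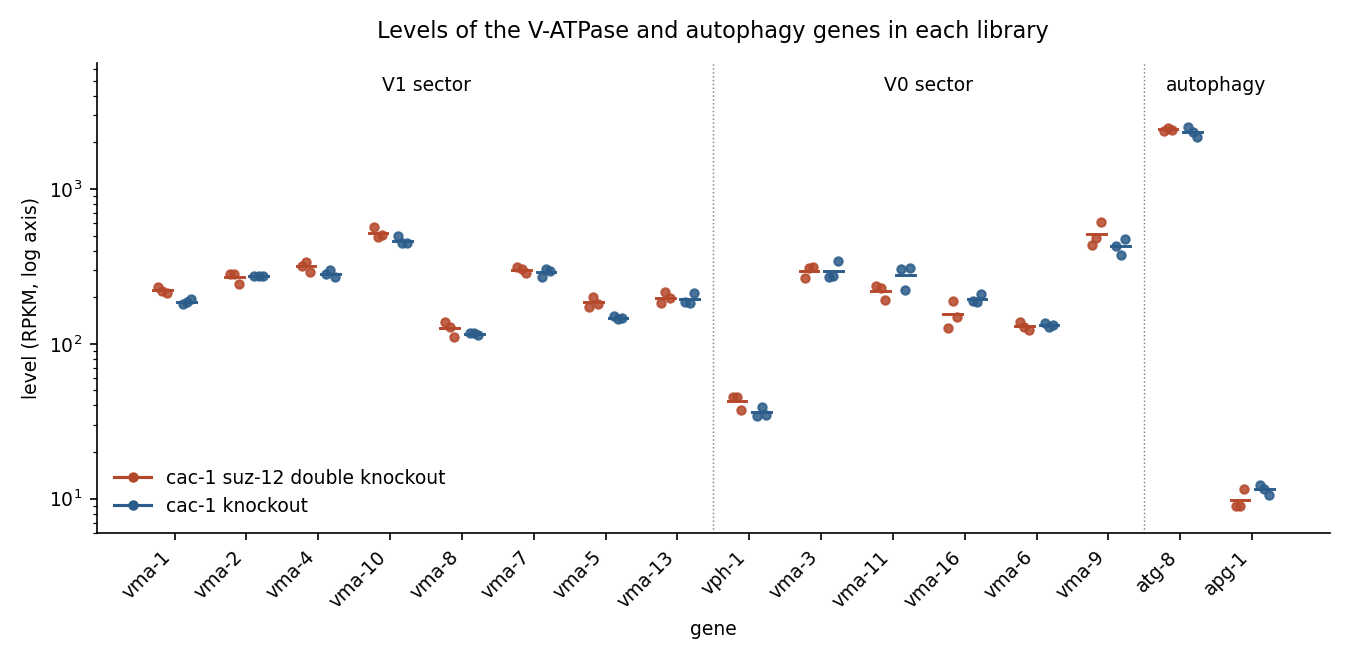
Level of each member in every library, in RPKM on a log axis, with V1 subunits, V0 subunits and autophagy genes from left to right. Points are libraries and bars are means of 3; atg-8 stands highest at about 2381 RPKM, apg-1 lowest at 10.6 RPKM, and vph-1 lies below every other subunit.

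Coordinates below are those of the count table, whose genome build is not given in the sources used here. The gene vma-1 (NCU01207, linkage group V, 3236971 to 3239267) encodes the catalytic A subunit, which binds and splits ATP. It stood at 234, 221 and 213 RPKM in the double knockout, against 180.2, 187 and 194 RPKM in the cac-1 knockout. Every double-knockout library lay above every cac-1 library, but the log2 fold change of 0.25 (standard error 0.145, adjusted p = 0.214 by edgeR) did not pass the threshold, and its 95% interval ran from -0.056 to 0.56. The gene vma-2 (NCU08515, linkage group II, 3398341 to 3400181) encodes the B subunit, the partner that forms the head with A. It stood at 281, 281 and 245 RPKM in the double knockout, against 275, 274 and 276 RPKM in the cac-1 knockout, and the groups overlapped. Its log2 fold change was -0.031 (standard error 0.146, adjusted p = 0.897 by edgeR), with a 95% interval from -0.34 to 0.28.

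The peripheral stalk, which holds the head still while the rotor turns, is built from E and G. The gene vma-4 for E (NCU07446, linkage group I, 598151 to 599010) averaged 316 ± 23.6 RPKM in the double knockout and 284 ± 16.4 RPKM in the cac-1 knockout (SD, n = 3 each). The gene vma-10 for G (NCU05118, linkage group VI, 3692522 to 3693761) was the highest subunit by mean level, at 522 ± 40.6 RPKM in the double knockout and 463 ± 27.6 RPKM in the cac-1 knockout (SD, n = 3 each). For both stalk genes the groups overlapped and neither was called, with log2 fold changes of 0.15 (standard error 0.148, adjusted p = 0.478 by edgeR) for vma-4 and 0.18 (standard error 0.147, adjusted p = 0.407 by edgeR) for vma-10. The central shaft, which carries rotation from the head to the membrane ring, is made of D and F. Its genes vma-8 (NCU08035, linkage group IV, 3976971 to 3978123) and vma-7 (NCU04387, linkage group IV, 3534822 to 3535413) lie on the same linkage group. The D gene vma-8 averaged 126 ± 13.96 RPKM in the double knockout and 116 ± 2.35 RPKM in the cac-1 knockout (SD, n = 3 each). The F gene vma-7 averaged 302 ± 12.8 RPKM in the double knockout and 289.8 ± 16.7 RPKM in the cac-1 knockout (SD, n = 3 each). For both shaft genes the libraries of the strains overlapped, and the log2 fold changes were 0.12 for vma-8 and 0.057 for vma-7.

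Subunits C and H sit where the stalk meets the membrane sector, and in yeast C leaves the enzyme when V1 and V0 come apart under glucose starvation. The C gene vma-5 (NCU09897, linkage group I, 3994202 to 3995558) stood at 174, 202 and 182 RPKM in the double knockout, against 152, 146 and 146 RPKM in the cac-1 knockout. This was 1 of 2 subunits, with vma-1, whose libraries did not overlap between the strains, against 42.3% of all genes tested. Its log2 fold change of 0.33 (standard error 0.146, adjusted p = 0.104 by edgeR) was the largest positive one in the complex, and the 95% interval ran from 0.021 to 0.64. The H gene vma-13 (NCU02746, linkage group I, 3405788 to 3407496), whose product in yeast silences ATP hydrolysis in free V1, stood at 184, 215 and 197 RPKM in the double knockout, against 187, 183 and 212 RPKM in the cac-1 knockout. Its groups overlapped and the log2 fold change was 0.036 (standard error 0.150, adjusted p = 0.886 by edgeR).

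In the membrane sector, vph-1 (NCU03463, linkage group II, 622753 to 625624) encodes the large a subunit, which forms the path that protons take past the ring. It was the lowest subunit in all 6 libraries, at 45.1, 45.4 and 37.1 RPKM in the double knockout, against 34.3, 39.1 and 34.6 RPKM in the cac-1 knockout. The means of the other 13 subunits lay between 121.03 RPKM for vma-8 and 492 RPKM for vma-10 over the 6 libraries, against 39.3 RPKM for vph-1. The log2 fold change of vph-1 was 0.24 (standard error 0.150, adjusted p = 0.253 by edgeR), and 1 double-knockout library lay within the range of the cac-1 libraries. The d gene vma-6 (NCU03395, linkage group II, 860256 to 861542), for the subunit that couples the shaft to the ring, averaged 130.2 ± 7.84 RPKM in the double knockout and 133 ± 3.96 RPKM in the cac-1 knockout (SD, n = 3 each); the groups overlapped, and its log2 fold change was -0.031 (standard error 0.144, adjusted p = 0.895 by edgeR). The gene vma-9 (NCU07681, linkage group IV, 2258971 to 2259389) encodes the small membrane subunit e and has the shortest counted length, 228 bp. It stood at 434, 484 and 610.2 RPKM in the double knockout, against 429, 376 and 476 RPKM in the cac-1 knockout, and replicate 3 of the double knockout lay above the other 5. The log2 fold change was 0.25 (standard error 0.165, adjusted p = 0.274 by edgeR), and without that library it was 0.10.

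The rotor ring of fungal V0 holds related proteolipids called c, c′ and c″. The main ring protein c is the product of vma-3 (NCU01332, linkage group V, 3684540 to 3685517), which stood at 267, 309 and 312 RPKM in the double knockout, against 270.4, 272 and 341 RPKM in the cac-1 knockout. The groups overlapped, and its log2 fold change of 0.0054 (standard error 0.155, adjusted p = 0.985 by edgeR) was the closest to 0 of the 14. The c′ gene vma-11 (NCU00667, linkage group I, 7633339 to 7634314) stood at 235, 231 and 192 RPKM in the double knockout, against 306, 223 and 309 RPKM in the cac-1 knockout. Replicate 2 of the cac-1 knockout fell within the range of the double knockout, and the other 2 cac-1 libraries lay above it. The c″ gene vma-16 (NCU09747, linkage group IV, 1935880 to 1936867) stood at 126, 189 and 149 RPKM in the double knockout, against 189.8, 186 and 208 RPKM in the cac-1 knockout. Here replicate 2 of the double knockout lay within the range of the cac-1 knockout, and the other 2 lay below it. These were the most negative changes of the complex, with log2 fold changes of -0.35 (standard error 0.165, adjusted p = 0.131 by edgeR) for vma-11 and -0.33 (standard error 0.164, adjusted p = 0.148 by edgeR) for vma-16. Their 95% intervals ran from -0.70 to 0.0035 and from -0.68 to 0.018. Whether they passed the threshold depended on single libraries. Without replicate 2 of the cac-1 knockout vma-11 passed the threshold (log2 fold change -0.49, edgeR adjusted p = 0.0408), in a fit that called 22.4% of genes. Without replicate 2 of the double knockout vma-16 passed it (log2 fold change -0.50, edgeR adjusted p = 0.0315), in a fit that called 29.1% of genes. Scaling to library totals, in a fit that called 31.7% of genes, also took vma-11 past the threshold. Over the 18 alternative fits the edgeR, DESeq2 or limma adjusted p ran from 0.0325 to 0.343 for vma-11 and from 0.0315 to 0.483 for vma-16. Reads shared among these related genes were not examined.

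**Figure D2:**
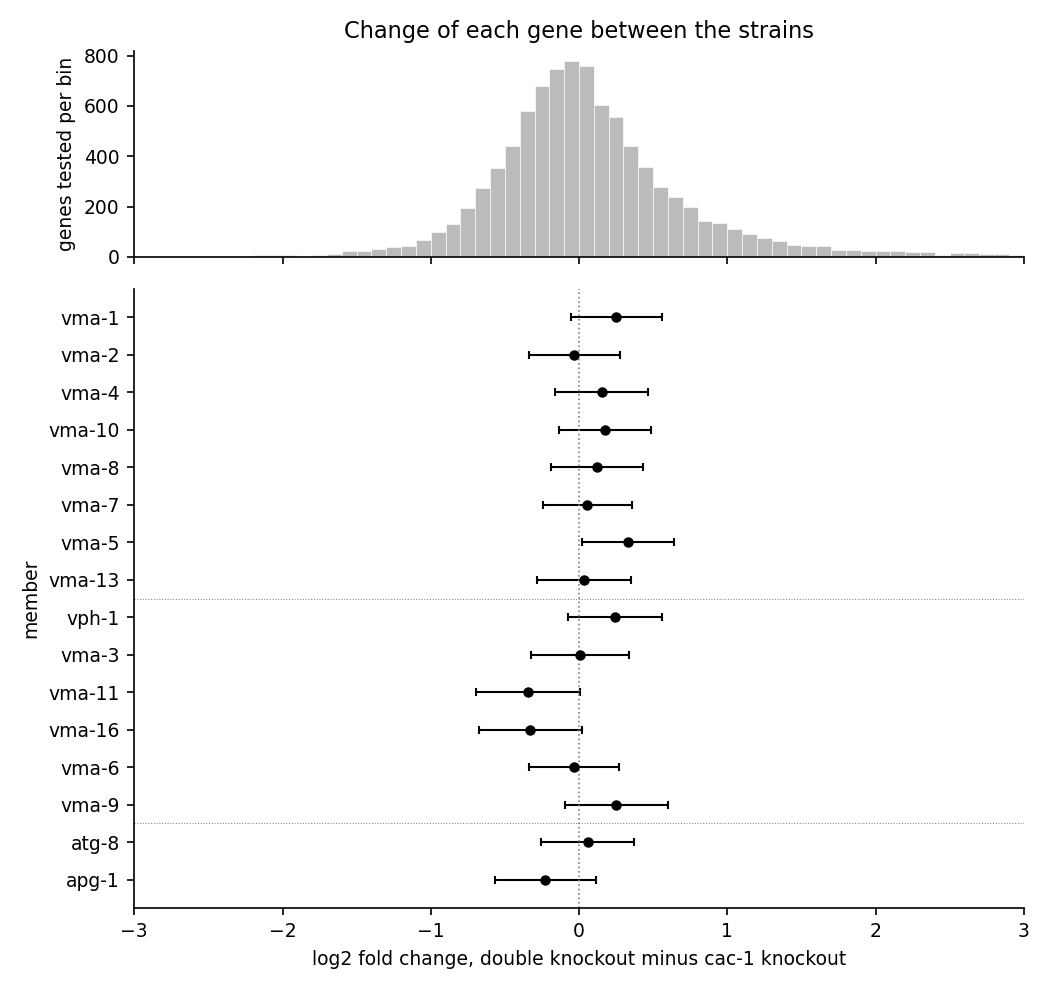
Upper panel, number of genes tested in each bin of log2 fold change, double knockout minus cac-1 knockout, with 159 genes outside the axis. Lower panel, the log2 fold change of each member with its 95% interval; the points lie between -0.35 and 0.33, and the interval of vma-5 is the only one that does not include 0.

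The median log2 fold change of the 14 was 0.088, against -0.00089 over all genes tested, and 10 values were above 0 and 4 below. That balance depended on the scaling, since 4 of 14 were above 0 on library totals, where the median of the subunits was -0.11 and that of all genes -0.20. Upper-quartile factors gave 7 of 14. As a plain share of all counts, the 14 genes took 0.237%, 0.284% and 0.226% in the double-knockout libraries, against 0.267%, 0.273% and 0.269% in the cac-1 libraries. These shares overlap, with means of 0.249% ± 0.0307 in the double knockout and 0.270% ± 0.00286 in the cac-1 knockout (SD, n = 3 each). On the TMM-scaled levels the order of the means was the opposite and the spreads were closer. There the mean log2 RPKM of the 14 subunits was 7.73 ± 0.0568 in the double knockout and 7.67 ± 0.0431 in the cac-1 knockout (SD, n = 3 each).

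The changes of the subunits relative to each other do not depend on the scaling of the libraries. The log2 fold changes of the 14 subunits had an SD of 0.204, against 0.924 over all genes tested and 0.786 over genes at or above the lowest subunit's level. The SD over all genes is raised by genes with extreme changes, such as matA-1. By the median size of the change, which such genes move little, the gap was smaller. With TMM scaling it was 0.164 for the subunits and 0.343 for all genes tested. For genes at or above the lowest subunit's level it was 0.312. The standard errors of single subunits ran from 0.143 to 0.165. The spread was narrower for V1, with an SD of 0.118 over 8 genes, than for V0, with 0.262 over 6. The V0 changes included -0.35 for vma-11 and -0.33 for vma-16. Those of the remaining V0 subunits ran from -0.031 to 0.25, and those of V1 from -0.031 to 0.33. The SD of V0 without vma-11 and vma-16 was not computed. The largest subunit change had a size of 0.35 on the log2 scale, and 49.7% of all genes tested had a larger one. Among genes at or above the lowest subunit's level that share was 46.5%.

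Constancy was also measured library by library, as the log2 level of a subunit minus the mean log2 level of the other 13 in the same library. The SD of this difference over the 6 libraries had a median of 0.129 among subunits. It was 0.323 when all genes tested were set against the complex in the same way, and 0.271 for genes at or above the lowest subunit's level. The SD of a gene's own TMM-scaled log2 level gave similar medians. These were 0.137 for the subunits, 0.314 for all genes tested and 0.261 for genes at or above the lowest subunit's level. The subunits were thus also steady on the scale of all genes and were little steadier against each other. Against the complex, 5.54% of all genes tested, and 8.69% of those at or above the lowest subunit's level, varied less than the median subunit. The steadiest subunits were vma-7, vma-2 and vma-13, with SDs of 0.0768, 0.0800 and 0.0803. At the other end stood vma-16, vma-11 and vma-9, with SDs of 0.300, 0.295 and 0.242. Of all genes tested, 45.1% varied less than vma-16 and 43.8% less than vma-11. All 3 of the most variable subunits belong to V0, while the 8 V1 subunits had SDs from 0.0768 to 0.170.

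**Figure D3:**
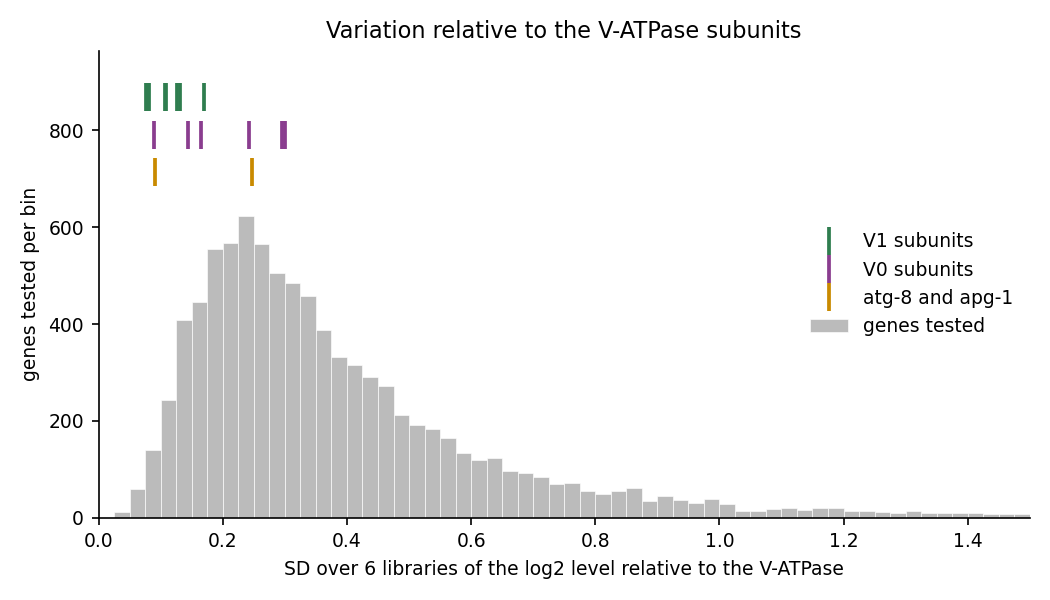
Number of genes tested in each bin of the SD over 6 libraries of the log2 level relative to the V-ATPase, with 255 genes outside the axis. Ticks mark the V1 subunits (0.0768 to 0.170), the V0 subunits (0.0894 to 0.300) and the autophagy genes (0.0913 for atg-8 and 0.248 for apg-1), most of them left of the bulk of the genes.

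Relative to the other subunits, 4 of 14 did not overlap between the strains, against 42.5% of all genes tested. Both vma-1 and vma-5 were higher in the double knockout. The difference of vma-1 from the rest was 0.074 ± 0.0804 in the double knockout and -0.13 ± 0.0503 in the cac-1 knockout (SD, n = 3 each) on the log2 scale. That of vma-5 was -0.21 ± 0.0838 in the double knockout and -0.50 ± 0.0616 in the cac-1 knockout (SD, n = 3 each). The proteolipid genes vma-11 and vma-16 were lower. For vma-11 the difference was 0.047 ± 0.132 in the double knockout and 0.48 ± 0.249 in the cac-1 knockout (SD, n = 3 each). For vma-16 it was -0.51 ± 0.279 in the double knockout and -0.069 ± 0.0502 in the cac-1 knockout (SD, n = 3 each). To test such shifts, the libraries were scaled to the geometric mean of the 14 subunits and every gene was fitted again. In that fit 0 of 14 subunits and neither autophagy gene passed an adjusted p under 0.05, against 28.3% of all genes, and 2 subunits passed at an unadjusted p under 0.05, against 39.9%. Those 2 were vma-11, with a log2 fold change of -0.41 (standard error 0.160, adjusted p = 0.0703 by edgeR), and vma-16, with -0.39 (standard error 0.160, adjusted p = 0.0777 by edgeR). For vma-5 it was 0.27 (standard error 0.145, adjusted p = 0.184 by edgeR) and for vma-1 0.19 (standard error 0.145, adjusted p = 0.353 by edgeR). Each subunit is part of its own scale here, which pulls its value slightly towards 0.

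**Figure D4:**
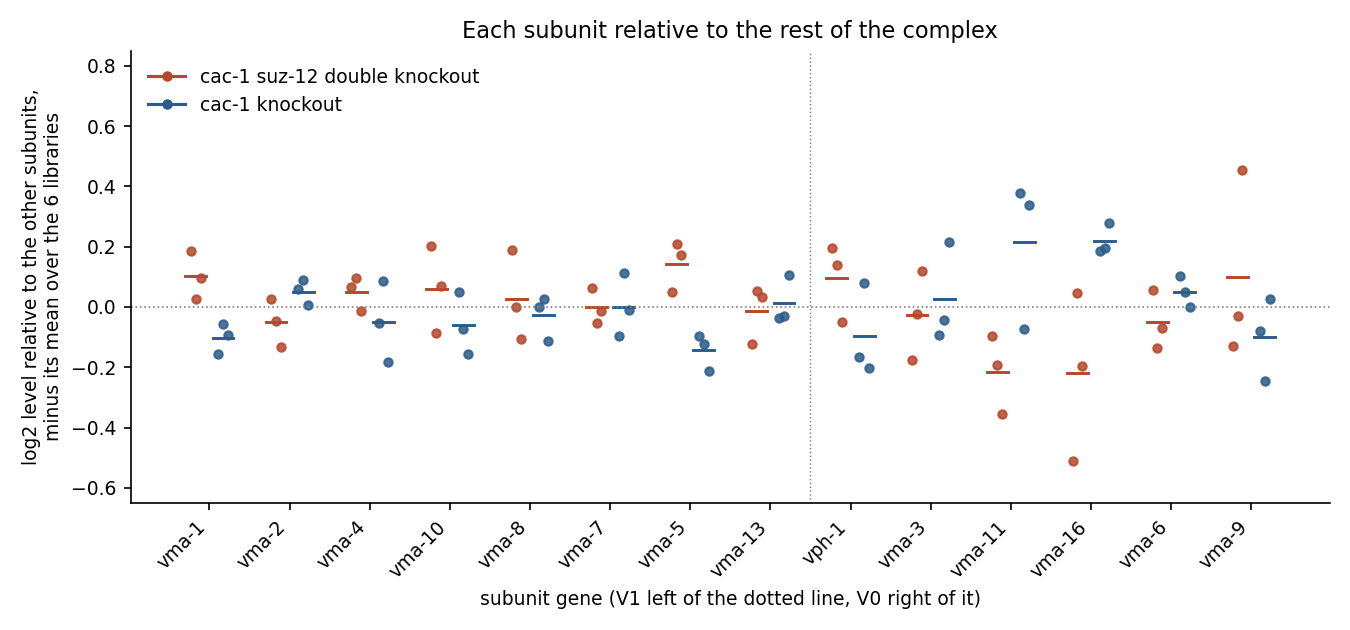
For each subunit, the log2 level relative to the other 13 subunits in the same library, minus its mean over the 6 libraries. Points are libraries and bars are means of 3; vma-1 and vma-5 stand higher in the double knockout, vma-11 and vma-16 lower, with no overlap between the strains, and the other 10 subunits overlap.

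Ratios between partner subunits were also taken. The ratio of vma-1 to vma-2, the A and B subunits of the head, was 0.832, 0.786 and 0.871 in the double-knockout libraries, against 0.654, 0.684 and 0.704 in the cac-1 libraries. The ratio was higher in all 3 double-knockout libraries, by 0.28 on the log2 scale. The ratio of vma-5 to vma-13 was 0.945, 0.936 and 0.925 in the double-knockout libraries, against 0.814, 0.796 and 0.689 in the cac-1 libraries. It too did not overlap, with a difference of 0.29. Among all 91 pairs of subunits, 29 did not overlap between the strains. Of the 66 pairs without vma-11 or vma-16, 13 did not. The share among pairs of all genes was not computed, so these counts are not read as a trait of the complex. For single genes set against the V-ATPase, 42.5% of all genes tested did not overlap. The upper members of the A to B and C to H ratios, vma-1 and vma-5, were also the subunits whose own levels did not overlap. The stalk ratio of vma-4 to vma-10 was 0.559, 0.687 and 0.579 in the double-knockout libraries, against 0.572, 0.677 and 0.6003 in the cac-1 libraries. The shaft ratio of vma-8 to vma-7 was 0.443, 0.423 and 0.385 in the double-knockout libraries, against 0.435, 0.387 and 0.383 in the cac-1 libraries. Stalk and shaft ratios overlapped, with differences of -0.022 and 0.054 on the log2 scale. These ratios were chosen for the structure of the enzyme and have no test of their own. With 3 libraries against 3, an exact permutation test of 1 ratio cannot give a two-sided p below 0.10.

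Within the ring, the ratio of vma-11 to vma-3 was 0.881, 0.749 and 0.615 in the double-knockout libraries, against 1.13, 0.820 and 0.904 in the cac-1 libraries. The ratio of vma-16 to vma-3 was 0.473, 0.613 and 0.478 in the double-knockout libraries, against 0.702, 0.684 and 0.610 in the cac-1 libraries. Both overlapped between the strains by 1 or more libraries, although both were lower in the double knockout on average, by log2 differences of -0.35 and -0.36. The ratio of vma-16 to vma-11 differed by only -0.011, but it ranged widely within each strain, with SDs of 0.331 in the double knockout and 0.219 in the cac-1 knockout on the log2 scale (n = 3 each).

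The balance of the sectors was taken with and without these 2 genes. The geometric mean level of V1 over that of V0 was 1.51, 1.39 and 1.36 in the double-knockout libraries, against 1.26, 1.35 and 1.18 in the cac-1 libraries. No library of one strain fell within the range of the other, and the log2 difference was 0.17. How often other groups of genes separate in this way was not computed. With vma-11 and vma-16 left out of V0, a choice made after their values were seen, the ratio was 1.54, 1.48 and 1.36 in the double-knockout libraries, against 1.46, 1.49 and 1.36 in the cac-1 libraries. The libraries then overlapped and the log2 difference was 0.019.

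**Figure D5:**
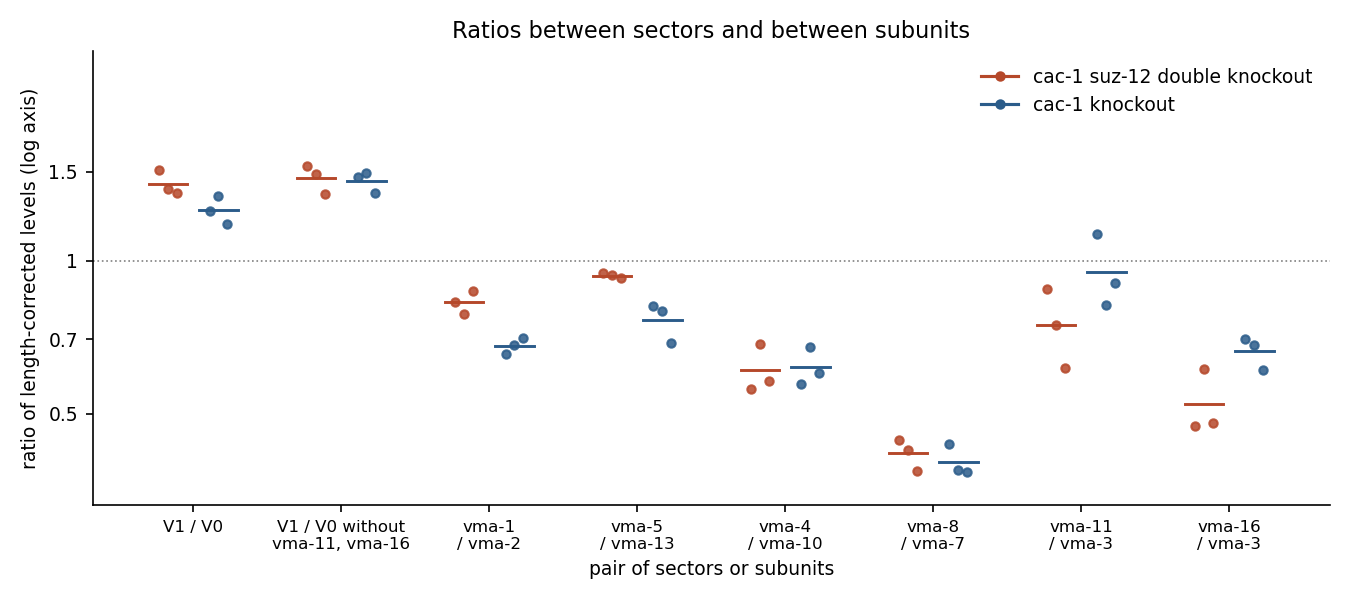
Ratios of length-corrected levels on a log axis, for V1 over V0 (geometric means) and for pairs of subunits. Points are libraries and bars are means of 3; V1 over V0, vma-1 over vma-2 and vma-5 over vma-13 are higher in every double-knockout library, and the remaining ratios overlap.

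Over all 91 pairs of subunits, the SD of the log2 ratio over the 6 libraries had a median of 0.188. The steadiest pair joined the sectors, vma-2 with vma-6 at 0.0538, and was followed by vma-13 with vma-3 at 0.0739 and vma-4 with vph-1 at 0.0763. The least steady pair was vma-11 with vma-9 at 0.419. Pairs share genes and libraries, so these values are a description.

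The order of the subunits by level was largely kept. In every library vma-10 and vma-9 held the 2 highest places and vph-1 the lowest. Spearman's rho of the 14 levels between libraries ran from 0.908 to 0.974 within a strain and from 0.833 to 0.960 between strains, over genes of the same libraries. Neighbours in the order are not separated beyond their spread, for example vma-4, vma-7 and vma-3, with means over 6 libraries of 300.3, 296 and 295 RPKM. The largest moves were those of vma-16, in places 11 to 13 in the double knockout and 8 or 9 in the cac-1 knockout, and of vma-11, in places 7 to 9 in the double knockout and 3 to 7 in the cac-1 knockout. All subunits but vph-1 stood above 88.4% or more of the genes tested, and vph-1 stood above 73.2%.

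The autophagy genes lay at opposite ends of the range. The gene atg-8 (NCU01545, linkage group II, 3125011 to 3125518) encodes the ubiquitin-like protein that is joined to lipid on the growing autophagosome. It stood at 2383, 2495 and 2409 RPKM in the double knockout, against 2508, 2337 and 2155 RPKM in the cac-1 knockout, above 98.9% of the genes tested. The groups overlapped, and the log2 fold change was 0.058 (standard error 0.149, adjusted p = 0.810 by edgeR), with a 95% interval from -0.26 to 0.37. Its SD relative to the V-ATPase over the 6 libraries, 0.0913, lay within the range of the subunits. The gene apg-1 (NCU00188, linkage group III, 2934566 to 2937644) carries the older yeast name of ATG1, the kinase gene. It stood at 8.90, 8.94 and 11.5 RPKM in the double knockout, against 12.2, 11.6 and 10.6 RPKM in the cac-1 knockout. This is below the median of 13.4 RPKM of the genes tested, and it is the only member below that median. Its log2 fold change was -0.23 (standard error 0.162, adjusted p = 0.323 by edgeR), with a 95% interval from -0.57 to 0.11, and the groups overlapped. With 1 library left out it lay between -0.36, without replicate 3 of the double knockout, and -0.16, without replicate 1 of the double knockout. The ratio of atg-8 to apg-1 was 268, 279 and 209 in the double-knockout libraries, against 205, 201 and 204 in the cac-1 libraries. It was higher in every double-knockout library, by 0.30 on the log2 scale, a difference that was not tested.

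Positions of the members are given as a description. The 14 subunit genes lie on 5 linkage groups and all 16 members lie at least 469 kb from a chromosome end, taken as the first base or the outermost annotated base. The share of all genes that lie this far from an end is not given here, so this is not read as a trait of the set. Each subunit gene was counted over 3 to 7 intervals, and no counted interval of a member overlapped that of another gene on either strand.

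Genes for the plasma membrane proton pump, ATP synthase, calcium and cation transport, a vacuolar protease and vesicle transport came from lists by name. They were 9 in all, taken whether or not the product lies in the vacuole. Of the 9 genes, 2 were called higher and 1 lower, against 16.1% and 11.9% of all genes tested in those directions. The gene pep4 encodes the vacuolar aspartic protease that activates other vacuolar proteases. It stood at 835, 809 and 703 RPKM in the double knockout, against 473, 434 and 522 RPKM in the cac-1 knockout, with no overlap. Its log2 fold change was 0.72 (standard error 0.155, adjusted p = 0.00238 by edgeR), and it was called in all 18 alternative fits. The interval of its change, 0.39 to 1.04, lies above 0, while those of the autophagy genes atg-8 and apg-1 include 0. Differences between pep4 and these genes were not tested. The calcium pump gene nca-2 rose to 26.1 ± 4.32 RPKM in the double knockout, against 16.2 ± 2.74 RPKM in the cac-1 knockout (SD, n = 3 each), and its log2 fold change was 0.69 (standard error 0.169, adjusted p = 0.00573 by edgeR). On library totals it missed the threshold (edgeR adjusted p = 0.0574). The gene nca-1 fell to 13.4 ± 2.02 RPKM in the double knockout, against 21.7 ± 3.24 RPKM in the cac-1 knockout (SD, n = 3 each), and its log2 fold change was -0.70 (standard error 0.164, adjusted p = 0.00422 by edgeR). The third gene of this name, nca-3, and the calcium-proton exchanger gene cax, whose product uses the gradient that the V-ATPase makes, were not called, with log2 fold changes of 0.29 and -0.0037.

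The genes listed for the plasma membrane proton pump and the mitochondrial ATP synthase were also not called. The plasma membrane proton pump gene pma-1 averaged 212 ± 17.2 RPKM in the double knockout and 217 ± 38.3 RPKM in the cac-1 knockout (SD, n = 3 each), and its log2 fold change was -0.038 (standard error 0.164, adjusted p = 0.890 by edgeR). The mitochondrial ATP synthase genes atp-1 and atp-2, for the alpha and beta subunits that correspond to B and A of the V-ATPase head, had log2 fold changes of -0.39 (standard error 0.167, adjusted p = 0.0933 by edgeR) and -0.18 (standard error 0.168, adjusted p = 0.472 by edgeR). The Rab gene ypt-1, for a GTPase of vesicle transport, was not called, with a log2 fold change of -0.22. A second set of genes whose products form 1 particle was the 7 cytoplasmic ribosomal protein genes named crp. By edgeR, 0 were called at an adjusted p under 0.05, against 28.1% of all genes tested. At an unadjusted p under 0.05, 0 passed as well, against 39.4%. The log2 fold changes of the crp genes had an SD of 0.141, against 0.204 for the V-ATPase subunits. Their SDs relative to the V-ATPase had a median of 0.113, against 0.129 for the subunits relative to the rest of their own complex. The value of 0.113 does not measure how constant the crp genes are relative to each other. By these medians, genes outside the V-ATPase were no less steady against it than its own subunits.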

How the data were processed

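Only libraries of the cac-1, suz-12 double knockout and the cac-1 knockout were used, 3 each. The authors deposited 1 table of raw counts per gene. Per the submitters' processing notes the tools were Trim Galore 0.6.10, STAR 2.7.11, SAMtools 1.21, Subread 2.0.6 with featureCounts, and deepTools 3.5.5. Their settings, the genome build and the use of strand in counting are not given in the sources used here; libraries were made with a directional kit, per the labels' protocols. Deposited gene lengths in base pairs equalled the counted exon intervals for all 9757 genes and were a multiple of 3 for 98.8%, so levels refer to coding exons. Of the counts from 1 to 20, 80.9% were even, so a count is not taken as 1 fragment. Another 36 columns of counts matched no label and were not used. Locus numbers and linkage groups came from the RefSeq table of assembly NC12, which matched 9723 identifiers and all 16 members. Coordinates are those of the count table.

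edgeR 4.0.16 (R 4.3.3) fitted the double knockout minus the cac-1 knockout over the whole table, with filterByExpr (9148 genes kept), TMM scaling, robust quasi-likelihood testing and no replicate block. P-values were adjusted by Benjamini-Hochberg over all genes tested, with calls made below 0.05. Standard errors are the log2 fold change over the root of F, and 95% intervals use the moderated degrees of freedom. RPKM values come from the counts, the deposited lengths and TMM-scaled totals. Variation measures use log2 RPKM with 0.5 added to each count. No intervals beyond those of the fit were computed. The fit was checked on simulated counts. Alternatives were other scalings and filters, DESeq2 1.42.0, limma-voom (limma 3.58.1), halved and thinned counts, a replicate block and leaving out each library. Members and lists were chosen with earlier results of these data known. Every member is named. Pathway, marker and comparison genes were taken by name; no gene matched the list for TOR and nutrient signalling, and lists of vacuolar sorting genes gave ypt-1 alone. No sequences are shown.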

Additional observations from a re-analysis of the deposited data

How the results depend on the processing

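No member was called in 15 of 18 alternative fits. In each of the other 3, 1 subunit was: vma-11 on library totals (log2 fold change -0.53, edgeR adjusted p = 0.0325, with 31.7% of all genes called) and without replicate 2 of the cac-1 knockout, and vma-16 without replicate 2 of the double knockout. Leaving out each library gave 0 to 1 subunits and 0 autophagy genes called. The median log2 fold change of the subunits was -0.11 on library totals, 0.025 when scaled to the subunits and 0.018 with upper-quartile factors, and 0.068 to 0.11 with 1 library left out. The median of the 2 autophagy genes was -0.084, and it was -0.28 on library totals and -0.15 to -0.036 with 1 library left out. The SD over subunit changes stayed between 0.2005 and 0.207 with all libraries and between 0.189 and 0.235 with 1 left out. The median SD relative to the complex ran from 0.107 to 0.140 and the V1 to V0 difference from 0.13 to 0.22 with 1 library left out; the difference was 0.14 with arithmetic means.

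Of 288 values of single members, 259 kept direction and side of the threshold, 3 passed it and 26 changed sign, each in a gene that was not called. On library totals, which move the median of all genes to -0.20, log2 fold changes turned to -0.041 for vma-4, -0.026 for vma-10, -0.078 for vma-8, -0.14 for vma-7, -0.15 for vma-13, -0.19 for vma-3 and -0.14 for atg-8. Scaled to the subunits, vma-7, vma-13, vma-3 and atg-8 stood at -0.0048, -0.024, -0.051 and -0.0041, and with upper-quartile factors at -0.014, -0.036, -0.068 and -0.011. For vma-3 it was -0.0055 with DESeq2 and -0.0053 with RLE factors. With 1 library left out, values ran from -0.054 to 0.11 for vma-3, -0.027 to 0.093 for vma-13, -0.0073 to 0.11 for atg-8, -0.064 to 0.031 for vma-2 and -0.0797 to 0.0040 for vma-6. Other scalings move all genes together; beyond that the cause was not tested. The replicate block called 0 subunits and 0 autophagy genes, and 3009 genes in all, of which 2547 were shared with the 2569 of the fit without it. Deviations of libraries with the same number correlated at -0.015, 0.097 and 0.17, so the numbers were not taken as pairs. Depth limits low genes most, and the lowest member count, 303 for apg-1, lies in the shallowest library.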
